A study of Mus musculus with 4 samples.

Results

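Mmp12 macrophages were examined across scRNA-seq libraries of orthotopic pancreatic tumors. Mmp12 encodes macrophage elastase, a secreted matrix metalloproteinase that cuts elastin and other extracellular matrix proteins and that macrophages are the main source of. In inflamed and tumor tissue, Mmp12-high cells are one of several states that macrophages take, next to resident-type cells marked by Lyve1 and Folr2, recently arrived monocytes marked by Ly6c2 and Ccr2, and cells rich in C1q. The granulocyte-macrophage colony-stimulating factor (GM-CSF) is a known inducer of Mmp12, and matrix proteases of this kind are studied for their part in remodeling the stroma around tumors.

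The cells were selected on their counts of unique molecular identifiers (UMIs, individual RNA molecules counted per gene). A cell needed at least 200 detected genes, at least 3 of the 6 macrophage genes Csf1r, Adgre1, Cd68, Lyz2, Ctss and Msr1, fewer than 2 of the 4 neutrophil genes Csf3r, Retnlg, Cxcr2 and Il1r2, and fewer than 4 of the 7 epithelial genes Krt7, Krt8, Krt18, Krt19, Epcam, Cldn4 and Cldn7, which together form the macrophage gate. A gate cell with at least 3 Mmp12 UMIs was a member. The rule found 911 Mmp12 macrophages among 4108 gate cells and 44554 cells kept in all, and the other 3197 gate cells, with fewer Mmp12 UMIs, were the comparison cells. Mmp12 and the other 17 genes of the rule chose the cells, so their values are a description and were not tested.

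KPC cells, a mouse pancreatic cancer line, were grafted into the pancreas of males, C57BL/6 by their labels, made obese by 24 weeks of high-fat diet, and each of the 4 libraries holds pooled tumor cell suspensions of 1 condition. In Pdgfrb-TK/GCV and Pdgfrb-TK/PBS, the mice carried thymidine kinase under the Pdgfrb promoter, which makes Pdgfrb-expressing cells sensitive to ganciclovir (GCV), and received GCV at 50 mg/kg or PBS. In D-CAN and WT/PBS, wild-type mice received PBS or, at 30 mg/kg, D-CAN, a peptide that homes to adipose stromal cells and induces apoptosis in them. Treatment lasted 25 days in all groups. The mice were 7 months old by the sample labels and 12 months by the study's methods. With tumors pooled before capture, no difference between conditions has a replicate, and GCV-treated wild-type mice were not analysed here.

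Every set of 4 values gives the Pdgfrb-TK libraries first, GCV and then PBS, followed by the wild-type libraries, D-CAN and then PBS. In that order the libraries held 127722502, 84020317, 130115741 and 155408336 UMIs in 12280, 10469, 10178 and 11627 cells kept. The Mmp12 macrophages numbered 421, 70, 205 and 215 and held 3427505, 329106, 1838653 and 2189050 UMIs. Pdgfrb-TK/PBS was thus by far the thinnest of the 4, and 3 UMIs of a gene there amounted to 9.12 CPM (UMIs of the gene scaled to a fixed total for the summed cells). Any 2 libraries shared between 26 and 42 cell barcodes, and no barcode was shared among Mmp12 macrophages.

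Mmp12 lies on mouse chromosome 9 at chr9:7344381-7369499 on the plus strand (GRCm38, GENCODE M21), inside a cluster of matrix metalloproteinase genes, and its end overlaps Mmp1b on the opposite strand. No Mmp1b UMI was counted in the Mmp12 macrophages of any library. Mmp13, collagenase 3, is the neighbor at chr9:7272514-7283331 and was the gene of the cluster with the clearest difference below, so the sequences upstream of both genes are shown. RefSeq gives starts of Mmp12 at positions 7344397 and 7347374, the latter inside the gene, and one of Mmp13 at 7272514. Each line runs 5′ to 3′ on the plus strand and stops before the first annotated base of the transcript, at chr9:7344147-7344380, chr9:7347124-7347373 and chr9:7272264-7272513 (GRCm38.p6). Capitals mark ACTTCCTC, the reverse complement of the PU.1-type motif GAGGAAGT, in the first, and the AP-1 motif TGAGTCA or its reverse complement TGACTCA in the others.
Mmp12, first start: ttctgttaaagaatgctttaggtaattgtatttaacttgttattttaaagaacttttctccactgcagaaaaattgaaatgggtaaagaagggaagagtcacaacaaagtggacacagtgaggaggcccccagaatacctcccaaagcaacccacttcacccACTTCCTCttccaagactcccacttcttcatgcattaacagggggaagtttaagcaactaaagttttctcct
Mmp12, second start: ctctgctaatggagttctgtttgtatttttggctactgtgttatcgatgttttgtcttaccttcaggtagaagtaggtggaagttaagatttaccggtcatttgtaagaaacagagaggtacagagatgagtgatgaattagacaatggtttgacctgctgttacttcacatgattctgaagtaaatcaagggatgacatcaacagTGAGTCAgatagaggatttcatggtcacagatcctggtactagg
Mmp13: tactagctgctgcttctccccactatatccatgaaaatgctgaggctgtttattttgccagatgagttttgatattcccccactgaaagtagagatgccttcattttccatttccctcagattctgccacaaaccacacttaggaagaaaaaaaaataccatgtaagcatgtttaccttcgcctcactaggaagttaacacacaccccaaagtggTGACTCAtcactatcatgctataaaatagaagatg

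The AP-1 motif begins 44 bases before the second Mmp12 start and 35 bases before the Mmp13 start, and the PU.1-type motif 88 bases before the first Mmp12 start. Over the 250 bases upstream of 32851 RefSeq starts (mouse chromosome 18 left out), 4.46% held the AP-1 motif and 2.44% the PU.1-type motif on either strand. A match is a string of letters and was not tested for binding.

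Mmp12 was a strongly expressed gene of its cells, and the members carried most of the Mmp12 RNA of each library. The median member had 8, 9, 10 and 10 Mmp12 UMIs, and the highest 207, 123, 178 and 139. Summed over the members, Mmp12 stood at 2160, 3658, 2091 and 1556 CPM, against 33.4, 38.6, 26.8 and 26.3 CPM in the other gate cells. The members held 69.8%, 67.6%, 76.7% and 73% of all Mmp12 UMIs of their library, while KPC tumor cells (cells with at least 4 of the 7 epithelial genes and fewer than 3 macrophage genes) stood at 5.19, 1.73, 0.894 and 1.91 CPM. At the threshold, 84, 13, 29 and 40 gate cells with 2 Mmp12 UMIs were just outside and 57, 9, 25 and 25 cells with 3 UMIs just inside. Outside the gate, 160, 34, 55 and 73 cells had at least 3 Mmp12 UMIs, of which 31, 12, 4 and 7 were left out only for their epithelial genes.

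The genes of the rule describe the cells and cannot check their label. Ctss, a lysosomal protease of antigen-presenting cells, was detected in 99.3%, 95.7%, 100% and 99.1% of members, Csf1r, the receptor of M-CSF, in 76.5%, 67.1%, 82.4% and 74.9%, and Cd68, a lysosomal membrane protein, in 71.7%, 74.3%, 77.1% and 80.9%. Csf1r stood at 251, 289, 320 and 185 CPM in members and at 224, 359, 369 and 220 CPM in the other gate cells. Il1r2, the decoy receptor of IL-1, which the gate counts as a neutrophil gene, reached 286, 261, 593 and 166 CPM in members, while Ly6g, a neutrophil gene outside the rule, had no UMI. Of macrophage genes the rule did not use, Tyrobp, a signaling adaptor of myeloid cells, stood at 1131, 1361, 1403 and 1061 CPM. C1qa was found in 74.4%, 76.9%, 85.9% and 68.7% of members and in 2.87%, 0.867%, 0.664% and 0.467% of KPC tumor cells, all thinned to 2000 UMIs. The KPC tumor cells were chosen for having fewer than 3 macrophage genes, so the gap in C1qa was set in large part by that choice. Tyrobp and C1qa thus describe the members and cannot check the macrophage part of the label. The word inflammatory in the label was borne out only in part, as the cytokine genes below show.

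Many Mmp12 macrophages also carried epithelial RNA. At least 2 of the 7 epithelial genes were detected in 65.8%, 50%, 23.4% and 62.3% of members and in 63.1%, 51.3%, 22.4% and 59.6% of the other gate cells. The 10 KPC tumor cell markers summed to 924, 1990, 499 and 779 CPM in members and to 1397, 3155, 783 and 949 CPM in the other gate cells. Krt18, at 363, 532, 199 and 361 CPM in members, led in all libraries but Pdgfrb-TK/PBS, where Tff1 stood at 653 CPM. In members Cldn4 was at 0 in all libraries but WT/PBS, Cldn7 in both PBS libraries and Epcam in Pdgfrb-TK/PBS. The 8 fibroblast markers summed to 288, 82, 734 and 1435 CPM in members and 453, 389, 1374 and 1752 CPM in the other gate cells, led there by Sparc. In members Dpt and Lum were at 0 in both Pdgfrb-TK libraries and Pdgfra and Postn in Pdgfrb-TK/PBS. Both lists were lower in members in every library, and whether this RNA came from droplets with 2 cells, free RNA or uptake was not tested. Members were also deeper than the other gate cells, with a median of 7173, 3814, 7901 and 8870 UMIs against 5823, 2855, 5222 and 7016, and the median share of mitochondrial UMIs was between 2.96% and 3.46% in members and between 3.2% and 3.74% in the others.

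**Figure D1:**
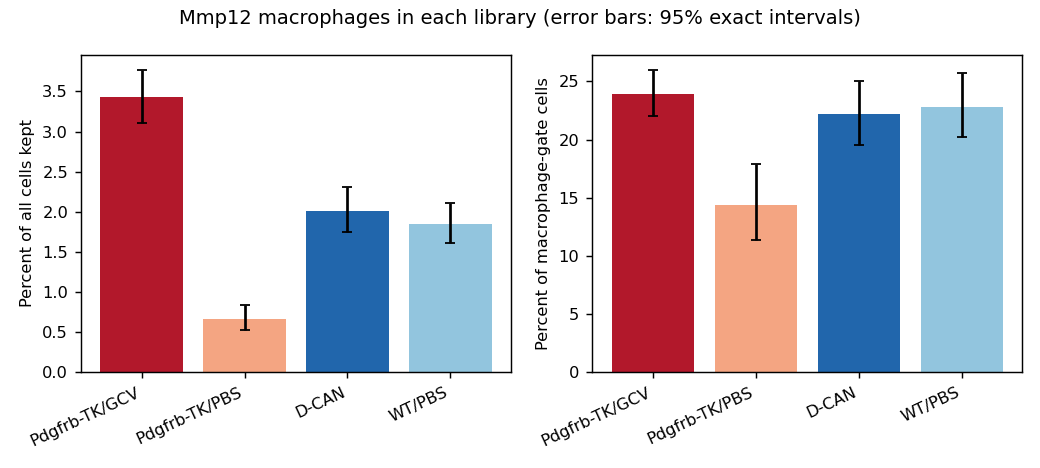
Mmp12 macrophages as a percent of all cells kept (left) and of macrophage-gate cells (right) in the 4 libraries, 1 per condition, with bars starting at 0 and exact 95% binomial intervals that cover counting error only. Pdgfrb-TK/PBS is lowest on both axes, at 0.669% and 14.4%, and the other 3 libraries lie between 22.2% and 23.9% of the gate. The shares rest on raw UMIs, and the gate cells of Pdgfrb-TK/PBS were the shallowest.

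Mmp12 macrophages made up 3.43% of cells in Pdgfrb-TK/GCV (exact Clopper-Pearson interval 3.11% to 3.77%), 0.669% in Pdgfrb-TK/PBS (0.522% to 0.844%), 2.01% in D-CAN (1.75% to 2.31%) and 1.85% in WT/PBS (1.61% to 2.11%). The share was thus 5.13-fold higher with GCV than with PBS (exact conditional interval 3.97 to 6.7), while D-CAN over its PBS library gave a ratio of 1.09 (0.895 to 1.33), an interval that holds 1. Much of the GCV difference lay in the gate as a whole, which took 14.3% of cells with GCV and 4.63% with PBS, a 3.09-fold difference (2.79 to 3.42). Within the gate, members made up 23.9% (22% to 26%) with GCV and 14.4% (11.4% to 17.9%) with PBS, a 1.66-fold difference (1.29 to 2.17), and 22.2% (19.5% to 25%) with D-CAN and 22.8% (20.2% to 25.7%) with WT/PBS, a ratio of 0.971 (0.798 to 1.18). The rule counts raw UMIs, and Pdgfrb-TK/PBS had the shallowest gate cells (medians of 3814 UMIs in members and 2855 in the others). With gate cells thinned to 2000 UMIs and at least 1 Mmp12 UMI required, 438 of 1667, 83 of 355, 213 of 835 and 206 of 909 passed. These within-gate shares lay closer together, with WT/PBS lowest, and the folds of all cells were 4.43 for GCV and 1.25 for D-CAN. The part of depth in the 1.66-fold difference was not tested. The PBS libraries also differed, with a ratio of Pdgfrb-TK/PBS to WT/PBS of 0.362 (0.272 to 0.476), so against WT/PBS the GCV fold was 1.85. With members limited to fewer than 2 epithelial genes, the folds of their share of all cells were 3.51 for GCV and 2.21 for D-CAN. That limit kept 144, 35, 157 and 81 members. These intervals cover counting error only, and no test was possible because each condition has 1 library.

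The comparison of Mmp12 macrophages with the other gate cells of the same library asked which further genes mark the Mmp12-high state, and here the 4 libraries were repeats of the same contrast. Mmp12 macrophages had more RNA of the chemokine genes Ccl17 and Ccl24, of Mmp13, of the fusion genes Dcstamp and Ocstamp, of the integrin gene Itgax and of the MHC class II genes. They had less RNA of some resident-type macrophage genes (Lyve1, Cd163, F13a1), of Ly6c2, a monocyte gene, and of the acute phase and secreted genes Saa3, Lcn2 and Chil3. Of 11097 genes tested with edgeR's quasi-likelihood test on UMI sums with the library as a block, 169 were higher (1.52%) and 80 lower (0.721%) at an adjusted p under 0.05 (Benjamini-Hochberg), of which 159 and 77 had the same direction in all 4 libraries. The median log2 fold change of all genes tested was -0.02.

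The counts changed with the fit and with the cells used. Without the library term edgeR called 0 genes, with 190 higher and 179 lower at an unadjusted p under 0.05. Without Pdgfrb-TK/PBS 56 genes were higher and 22 lower, without Pdgfrb-TK/GCV 89 and 46, without D-CAN 82 and 28, and among cells with fewer than 2 epithelial genes 51 and 36.

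The largest rise was that of a chemokine gene. Ccl17, a ligand of CCR4 on regulatory and type 2 helper T cells, stood at 176, 638, 104 and 281 CPM in members and at 24.3, 13.3, 25.7 and 39 CPM in the other gate cells. It was higher in 4 of 4 libraries, with a log2 fold change of 3.15 ± 0.38 (SE, n = 4 libraries) and an edgeR adjusted p of 0.00359, and the lowest member value lay above the highest comparison value. Ccl24 (eotaxin-2, a ligand of CCR3 on eosinophils) stood at 842, 1310, 370 and 66.7 CPM against 206, 189, 142 and 44.3 CPM, a log2 fold change of 1.80 ± 0.27. WT/PBS was far below the other libraries for this gene, so the groups overlapped across libraries and differed within each. Tnfrsf9 (the costimulatory receptor 4-1BB) stood at 251, 280, 194 and 175 CPM against 37.5, 22, 40.6 and 68.6 CPM (log2 fold change 2.43 ± 0.27). Il7r, a receptor subunit for IL-7 and TSLP, stood at 61.9, 69.9, 89.2 and 175 CPM against 12.7, 18, 12.5 and 77.4 CPM (2.05 ± 0.24), and WT/PBS was the highest library in both classes. Itgax (the CD11c integrin chain) stood at 179, 185, 231 and 85.4 CPM against 47.9, 53.9, 68.8 and 27.5 CPM, with log2 1.84 ± 0.10 and the smallest adjusted p of the comparison, 9.05e-05 by edgeR. The rest of the 15 largest rises were H2-M2, a class I-like MHC gene (3.13 ± 0.50), the lectin genes Mgl2 (1.93 ± 0.23) and Klrb1b (1.72 ± 0.18), Plet1 (1.81 ± 0.20), Ass1 of arginine synthesis (1.74 ± 0.28), Qpct (1.52 ± 0.22) and Ksr2 (1.49 ± 0.23), with Mmp13, Dcstamp and Ocstamp below. Of these 15, 11 genes were found among the RefSeq starts searched. The AP-1 motif lay upstream of 3 of them (Itgax, Mmp13 and Tnfrsf9) and the PU.1-type motif of none.

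**Figure D2:**
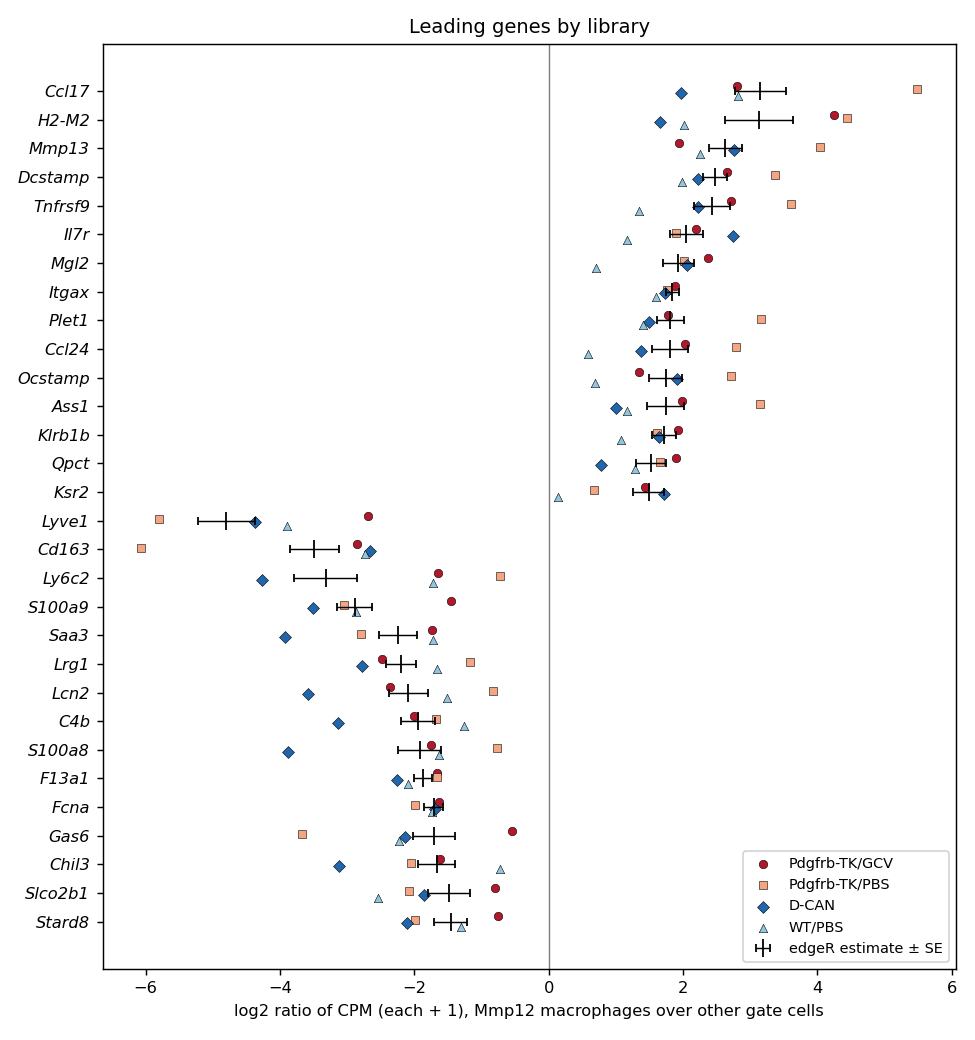
The 15 largest rises and 15 largest falls in Mmp12 macrophages against other gate cells: symbols give the log2 ratio of CPM (1 CPM added to each) in the 4 libraries, and bars the edgeR estimate ± SE. All points lie on the side of 0 of their estimate; Pdgfrb-TK/PBS, with 70 cells, lies farthest from the others for several genes.

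Among 15 tested matrix proteases and inhibitors, 3 rose and 1 fell, with a median log2 fold change of 0.40. Mmp13 stood at 207, 258, 374 and 305 CPM in members and 53.3, 14.7, 54.2 and 63.4 CPM in the other gate cells (2.63 ± 0.24, edgeR adjusted p = 0.00138), without overlap between the classes. Mmp14, a membrane-anchored protease that activates other metalloproteinases, differed less (0.61 ± 0.12), as did the sheddase Adam8 (0.85 ± 0.10). Timp1, a secreted inhibitor of these proteases, fell (-1.21 ± 0.26, edgeR adjusted p = 0.0441), a call lost without Pdgfrb-TK/GCV, Pdgfrb-TK/PBS or D-CAN, with cells thinned to 2000 UMIs, with a comparator without Mmp12 UMIs, with a minimum of 10 Mmp12 UMIs and with fewer than 2 epithelial genes. Other genes of the chromosome 9 cluster were low: Mmp10 stood at 22.8, 3.04, 8.7 and 3.2 CPM and Mmp8 at 36.8, 36.5, 12 and 19.6 CPM, and neither was called, while Mmp3, at 1.75, 3.04, 1.63 and 15.5 CPM, did not pass the filter on low counts and was not tested. Mmp9 (gelatinase B) had a log2 fold change of 1.14 ± 0.69 and an edgeR adjusted p of 0.551. Of 14 tested lysosomal genes, Cstb and Ctsz rose and Ctsk fell, and none of the 14 passed without Pdgfrb-TK/PBS.

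Genes that multinucleated cells use formed a second group. Of 8 osteoclast markers, 6 were tested and 4 rose, with a median log2 fold change of 1.26. Dcstamp, whose product is needed for the fusion of osteoclasts and giant cells, stood at 82, 57.7, 177 and 116 CPM against 12.2, 4.66, 37.2 and 28.5 CPM (2.48 ± 0.18, edgeR adjusted p = 2.88e-04). Ocstamp, its partner in fusion, stood at 54.3, 66.8, 44.1 and 7.31 CPM against 20.9, 9.32, 11 and 4.16 CPM (1.74 ± 0.25). Atp6v0d2, a proton pump subunit (1.47 ± 0.24), and Acp5, tartrate-resistant acid phosphatase (1.05 ± 0.20), also rose. Nfatc1, the master regulator of osteoclasts, had 0.05 ± 0.15, Itgb3 had -0.47 ± 0.32, and Calcr, the calcitonin receptor of mature osteoclasts, had no UMI in members. The summed level of the 8 markers was 873, 805, 758 and 533 CPM in members, led by Acp5. Without Pdgfrb-TK/PBS 2 genes of the list passed, and among cells with fewer than 2 epithelial genes 1 passed, with a median of 1.32.

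MHC class II genes, which present antigen to CD4 T cells, were the list with the largest share of genes called. Of 8 genes 6 rose (H2-Aa, H2-Ab1, H2-Eb1, Cd74, H2-DMa and H2-DMb1), with a median log2 fold change of 0.95. H2-Ab1 stood at 1255, 1577, 4131 and 1472 CPM in members and 409, 940, 2928 and 878 CPM in the other gate cells (0.97 ± 0.15, edgeR adjusted p = 0.0116), with D-CAN high in both classes. Ciita, their transactivator, had 0.70 ± 0.19 and H2-Oa 0.79 ± 0.32, and neither passed. Only 2 of the 8 passed without Pdgfrb-TK/PBS and 1 among cells with fewer than 2 epithelial genes, with medians of 0.97 and 0.66. Dendritic cells also express class II, Itgax and Ccl17. Their 8 markers summed to 9.92, 6.08, 69.1 and 59.8 CPM in members. Ccr7 stood at 1.75, 3.04, 31.5 and 41.1 CPM and was the most abundant of the 8 in the wild-type libraries only. Flt3 stood at 1.17, 0, 3.81 and 0.914 CPM, Zbtb46 at 3.79, 3.04, 9.25 and 9.59 CPM, Cd209a at 0, 0, 15.8 and 4.11 CPM and Clec9a at 0.584, 0, 5.44 and 1.37 CPM, and Siglech had no UMI. In the other gate cells the 8 markers summed to 11, 16, 87.1 and 35.6 CPM, above the members in all libraries but WT/PBS, and over all cells of each library to 14.7, 10.7, 35.5 and 22.1 CPM. The part of dendritic cells in the results was not tested.

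**Figure D3:**
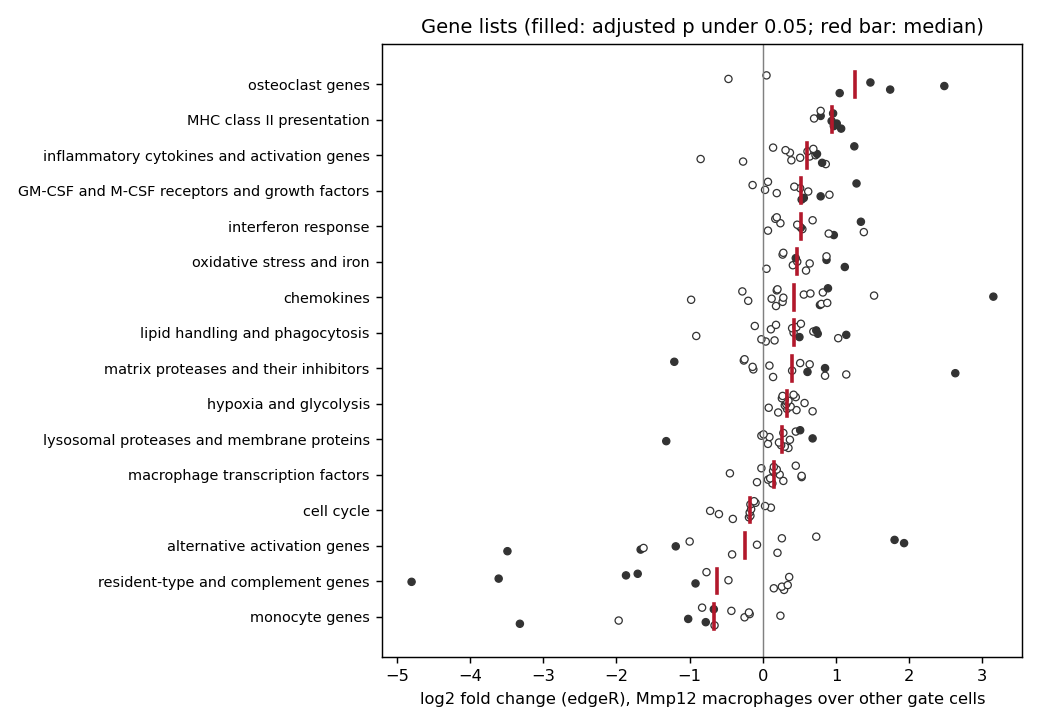
The log2 fold change (edgeR) of each tested gene of 16 lists in Mmp12 macrophages against other gate cells, with filled points for an adjusted p under 0.05 and a red bar at the list median. Osteoclast and MHC class II genes have the highest medians, 1.26 and 0.95, and resident-type and monocyte genes the lowest, -0.62 and -0.66. With cells thinned to 2000 UMIs the resident-type median was 0.11.

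Of 15 inflammatory cytokine and activation genes 3 rose, with a median of 0.61. They were Il1b (0.81 ± 0.12), its antagonist Il1rn (1.25 ± 0.14) and the costimulatory ligand gene Cd80 (0.74 ± 0.12). Il1b stood at 611, 817, 1795 and 2621 CPM in members and 452, 342, 1276 and 1466 CPM in the other gate cells, with both wild-type libraries above both Pdgfrb-TK libraries. Tnf (0.51 ± 0.17), Nos2 (0.64 ± 0.36) and Il6 (-0.27 ± 0.15) did not pass. Of 18 chemokines, Ccl17, Ccl3 (0.78 ± 0.13) and Cxcl16 (0.89 ± 0.16) rose, with a median of 0.42, and Ccl22, the neighbor of Ccl17 that acts on the same receptor, had 1.52 ± 0.44 without passing. Only 1 chemokine was higher without Pdgfrb-TK/GCV, 1 without Pdgfrb-TK/PBS and 1 among cells with fewer than 2 epithelial genes. Of the inflammatory list 1 gene was higher among cells with fewer than 2 epithelial genes and 2 without D-CAN. Interferon response genes had a median of 0.52, and 3 of 13 tested rose, Isg15 and Rsad2 among them. Without Pdgfrb-TK/PBS none of the 13 passed, and without Pdgfrb-TK/GCV 1 was higher. Among cells with fewer than 2 epithelial genes none of 12 tested passed.

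Growth factor receptors and lipid genes followed. Of 12 GM-CSF and M-CSF receptor and growth factor genes, 4 rose with a median of 0.52: the GM-CSF receptor chains Csf2ra (0.53 ± 0.11) and Csf2rb (0.56 ± 0.11), the IL-3 receptor chain Csf2rb2 (0.79 ± 0.11) and the activin subunit Inhba. Csf2rb and Csf2rb2 are near-identical copies, like Ly6c1 and Ly6c2 or Clec10a and Mgl2, so the split of reads between them is uncertain. Inhba stood at 260, 255, 132 and 512 CPM against 155, 78.6, 63.5 and 182 CPM (1.28 ± 0.15). The receptor chains moved by less than Inhba, and with cells thinned to 2000 UMIs 1 gene of the list passed. Of 17 lipid handling genes, Fabp5, a fatty acid binding protein (1.14 ± 0.15), Lpl (0.75 ± 0.14), Lgals3 (0.73 ± 0.11) and Spp1 (0.50 ± 0.10) rose, with a median of 0.42, while Trem2 (0.04 ± 0.10) and Apoe (-0.02 ± 0.12), marker genes of lipid-associated macrophages, did not pass. Without Pdgfrb-TK/PBS 1 gene of the list was higher, and among cells with fewer than 2 epithelial genes 2. Fth1 and Ftl1, the ferritin chains, and the cystine carrier gene Slc7a11 rose among 11 oxidative stress and iron genes, median 0.47. None of 16 hypoxia and glycolysis genes, 12 cell cycle genes and 15 macrophage transcription factors passed, with medians of 0.33, -0.17 and 0.15. At an edgeR adjusted p of 0.133, Bhlhe40 had 0.53 ± 0.16.

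Of 12 resident-type and complement genes tested, 5 fell and none rose, with a median of -0.62. Another 5 had a log2 fold change above 0 without passing. With cells thinned to 2000 UMIs, 4 of 9 tested genes fell and the median was 0.11. Lyve1, a hyaluronan receptor of perivascular resident macrophages, stood at 0.875, 0, 0 and 0.914 CPM in members, from 3, 0, 0 and 2 UMIs, and at 11.1, 54.6, 19.8 and 27.5 CPM in the other gate cells. Its fitted log2 fold change of -4.80 ± 0.42 was the largest fall of the comparison (edgeR adjusted p = 0.00106) and depends on the prior count, because 2 libraries had no UMI. F13a1, a transglutaminase, stood at 139, 161, 53.3 and 64 CPM against 442, 511, 259 and 278 CPM (-1.87 ± 0.13, edgeR adjusted p = 2.37e-04), without overlap. Cbr2, Gas6 and Selenop also fell. The complement genes of the list, C1qa (0.29 ± 0.11), C1qb (0.15 ± 0.10) and C1qc (0.26 ± 0.10), and the receptor gene C3ar1 (0.34 ± 0.12) did not pass. Lyve1, Cbr2, F13a1, Gas6 and Selenop also passed among cells with fewer than 2 epithelial genes.

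Alternative activation genes went both ways, with Ccl24 and Mgl2 higher and Cd163 (-3.49 ± 0.36, with no UMI in the members of 2 libraries), Chil3 (-1.67 ± 0.28) and Folr2 (-1.19 ± 0.20) lower of 12 tested, of which 1 was lower without Pdgfrb-TK/PBS. Mrc1, the mannose receptor, had -0.42 ± 0.12 and did not pass. Of 12 monocyte genes 4 fell and none rose, with a median of -0.66. Ly6c2 stood at 0.584, 6.08, 2.18 and 1.83 CPM in members, from 2, 2, 4 and 4 UMIs, against 3.98, 10.7, 60.1 and 8.33 CPM (-3.32 ± 0.47), and its highest comparison value lay in D-CAN. Itgam (-0.67 ± 0.11), Plac8 (-0.78 ± 0.13) and Vcan (-1.02 ± 0.22) fell too, while Ccr2 (-0.66 ± 0.15) had an edgeR adjusted p of 0.0528. Without D-CAN, none of the 12 monocyte genes passed.

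Further genes among the 15 largest falls encode secreted proteins. Saa3 (serum amyloid A3) stood at 478, 69.9, 12.5 and 201 CPM against 1599, 493, 205 and 669 CPM (-2.24 ± 0.28, edgeR adjusted p = 0.00466), lower in 4 of 4 libraries. Lcn2 (-2.09 ± 0.29), Lrg1 (-2.20 ± 0.23) and the complement gene C4b (-1.95 ± 0.25) fell as well. S100a9 (-2.89 ± 0.26) and S100a8 (-1.92 ± 0.32), calprotectin genes of neutrophils and monocytes, were lower, and among the 8 neutrophil markers Il1r2 was the most abundant. Tff1, a tumor cell gene (-0.82 ± 0.13), and Sparc, a fibroblast gene (-1.08 ± 0.17), were lower with the epithelial and fibroblast sums above, and their part in the other falls was not tested. The rest of the 15 largest falls were Fcna (-1.71 ± 0.14), Slco2b1 (-1.49 ± 0.31) and Stard8 (-1.46 ± 0.25).

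Levels also differed along the Mmp12 count that chose the cells, which is given without a test. Pooled over the 4 libraries, Mmp13 stood at 45.6 CPM in gate cells with no Mmp12 UMI, 74.2 with 1, 129 with 2, 187 with 3 to 9 and 352 with 10 or more. Dcstamp ran through 16.5, 31, 75.9, 74.3 and 145 CPM and Itgax through 38.4, 78.7, 110, 153 and 175 CPM in the same bins. F13a1 stood at 409 CPM at 0, 97 CPM at 2 and 85.8 and 109 CPM in the member bins. H2-Ab1 differed too much between libraries to be pooled and stood at 349, 833, 2801 and 831 CPM at 0 UMIs, 1380, 1625, 4217 and 1555 CPM at 3 to 9 and 1129, 1530, 4076 and 1408 CPM at 10 or more, so the highest Mmp12 bin was below the bin before it in 4 of 4 libraries. In the pooled values, gate cells just under the threshold were between the classes for Mmp13 and close to the members for F13a1. The median depth was 5365, 5873 and 5824 UMIs in the bins of 0, 1 and 2 and 6922 and 8133 UMIs in the member bins. These bins hold between 166 and 2693 cells over all libraries, but only 13 cells of Pdgfrb-TK/PBS had 2 Mmp12 UMIs.

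**Figure D4:**
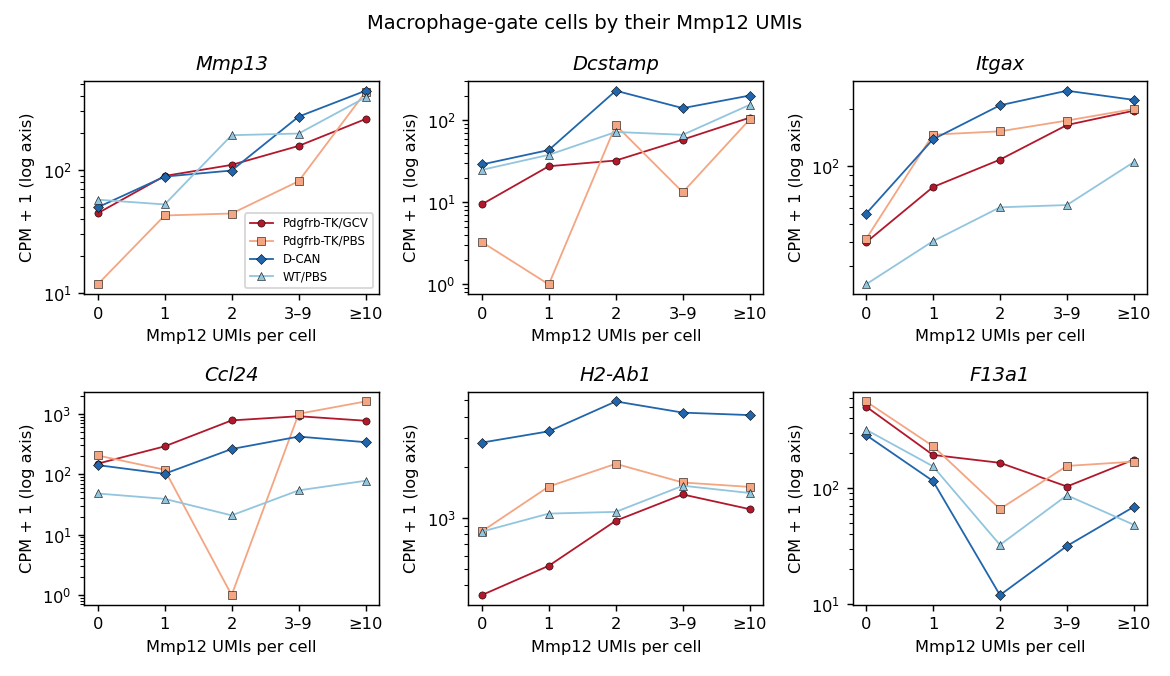
CPM (1 added, log axis) of 6 genes in macrophage-gate cells grouped by their Mmp12 UMIs (0, 1, 2, 3 to 9, 10 or more), 1 line per library. Mmp13 and Itgax are higher in the bins of 3 or more than at 0 in every library, F13a1 is lower, and Pdgfrb-TK/PBS jumps where its bins of 1 and 2 UMIs hold 32 and 13 cells.

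The Mmp12 macrophages were not uniform. Mmp13 was detected in 39.4%, 35.7%, 52.2% and 32.6% of members and Ccl17 in 11.2%, 14.3%, 10.7% and 16.3%, so Ccl17, the largest rise, came from a minority of cells. Only 24 of 911 members had both, where the product of the shares within libraries gives 45 cells. Mmp13 was found in 21.1% of members with Ccl17 and 43.2% of those without, lower with Ccl17 in 4 of 4 libraries. Dcstamp went the other way, at 57% of members with Ccl17 and 18.1% of those without (65 cells against a product of 26.9), again in 4 of 4 libraries. Il7r was found in 48.2% and 30.4%, higher with Ccl17 in 3 of 4 libraries. These counts are over cells, which share libraries and differ in depth, and no test was made.

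After thinning each cell to 2000 UMIs, Mmp13 was found in 20.5%, 27.7%, 29.8% and 22.9% of members and 7.66%, 1.72%, 7.3% and 6.19% of the other gate cells, with 2.27%, 0.6%, 1.25% and 4.4% in KPC tumor cells. In WT/PBS that tumor cell share was above those of C1qa (0.467%) and Itgax (0%), and whether tumor cells make some Mmp13 was not tested. Ccl17 was found in 7.73%, 12.3%, 7.33% and 11.2% of thinned members, in 1.12%, 1.03%, 1.55% and 3.31% of the other gate cells and in 0.8%, 0.533%, 0.369% and 0.4% of KPC tumor cells. Both genes were thus above the tumor cell share in members of every library, whereas Spp1, found in 77.1%, 63.1%, 46.1% and 56.5% of thinned members, was found in 90.5%, 76.5%, 91.7% and 78.5% of KPC tumor cells and was read no further. Fabp5 was found in 47.1%, 64.6%, 54.5% and 61.7% of thinned members and 25.9%, 37.9%, 32.1% and 55% of the other gate cells. In KPC tumor cells it was found in 31.1%, 41.2%, 49.7% and 24.2%, and the part of tumor cell RNA in its rise was not tested.

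Members overlapped with the C1q macrophage state. At least 3 UMIs of C1qa, C1qb and C1qc together were present in 83.8%, 75.7%, 86.3% and 89.3% of members and in 71.2%, 69.4%, 72.6% and 82.9% of the other gate cells. In all, 775 of 911 members (85.1%) had them. Members are deeper, and with cells thinned to 2000 UMIs C1qa was found in 60.4%, 69%, 66.6% and 72.2% of the others, below the member shares given above except in WT/PBS, where members were lower.

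Treatments were compared within the Mmp12 macrophages as a description of 1 library against another. In Pdgfrb-TK mice, Saa3 and Chil3, secreted products of activated macrophages, were higher with GCV, as were the heat shock genes Dnajb1 and Hsph1, and the tumor epithelial genes Tff1, Tff2 and Lgals4 were lower. Of 3636 genes with at least 100 UMIs in both libraries together and 50 CPM in the higher, 101 were more than 2-fold higher with GCV (2.78%) and 54 more than 2-fold lower (1.49%), on log2 ratios with 1 CPM added, which understate changes of low genes. With minimums of 30 UMIs and 10 CPM the counts were 749 and 250, and with cells thinned to 2000 UMIs 11 genes were lower. The median log2 ratio was -0.00, and 122 of the 155 had the same direction in the other gate cells.

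Saa3 stood at 478 CPM with GCV and 69.9 CPM with PBS, a 6.85-fold difference (exact interval 4.55 to 10.8), and Chil3 (a chitinase-like protein) at 1241 and 228 CPM, 5.45-fold (4.34 to 6.94). Both were also higher with GCV in the other gate cells, by 1.70 and 2.01 on the log2 scale. Hsph1 stood at 312 and 63.8 CPM (log2 2.27) and Dnajb1 at 117 and 18.2 CPM (2.61). Against the WT/PBS library, these heat shock genes went the other way, at -0.31 and -1.17. The largest ratio, Phgdh of serine synthesis, rested on 2 UMIs in the PBS library against 329 with GCV, 15.8-fold (4.34 to 131), and Dut on 2 against 175 UMIs, 8.4-fold (2.29 to 69.9). Tnfaip6, F2r, Sprr1a and Lmnb1 completed the 10 largest rises, with 3, 4, 5 and 9 UMIs in the PBS library, and Sprr1a turned to -0.01 among cells with fewer than 2 epithelial genes.

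Tff2, Tff1, Gsta4 and Lgals4 led the genes lower with GCV, at log2 ratios of -2.92, -2.76, -2.75 and -2.21, beside KPC marker sums of 924 CPM with GCV and 1990 CPM with PBS in the same cells. The part of tumor cell RNA in these ratios was not tested. Against WT/PBS, Tff2, Tff1 and Lgals4 stood on the other side, at 0.81, 0.11 and 0.29. H2-M2 (-1.91, and 1.68 against WT/PBS), Ifi27l2a (-1.71) and the lipid scavenger gene Cd36 (-1.69) followed. Ccl17 stood at 176 CPM with GCV and 638 CPM with PBS (-1.85, from 603 and 210 UMIs), while among cells with fewer than 2 epithelial genes its ratio was 1.22, so no direction is given for it. Add2 (-1.79) and Plce1 (-1.74) turned in the same way, to 2.03 and 1.61.

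By list, few genes passed 2-fold with GCV. Of 11 matrix proteases with enough UMIs, Mmp9 (307 against 134 CPM, 2.3-fold, interval 1.7 to 3.18) and Mmp19 (62.7 against 27.3 CPM, from 9 UMIs with PBS) were higher. Among cells with fewer than 2 epithelial genes the log2 ratio of Mmp9 was 0.02, and against WT/PBS that of Mmp19 was -1.88. All 7 MHC class II genes with enough UMIs had negative ratios, none past 2-fold, with a median of -0.63 in members and -1.20 in the other gate cells. Of 15 chemokines Cxcl10 (71.5 against 222 CPM) was lower and Ccl17 was past 2-fold too, with the turn given above, and of 11 inflammatory genes Tnf was lower. Il6 was past 2-fold higher, from 10 UMIs with PBS, but stood at -0.41 against WT/PBS and at -0.04 among cells with fewer than 2 epithelial genes. None of the measured genes of the lysosomal, glycolysis, cell cycle, oxidative stress, transcription factor and growth factor lists passed 2-fold. Mmp13 stood at 207 and 258 CPM, with an interval of the ratio, 0.64 to 1.02, that holds 1.

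In wild-type mice, the interferon-gamma type genes Cxcl9, Iigp1 and Ciita and all measured MHC class II genes were higher with D-CAN, and neutrophil-attracting chemokines, oxidative stress genes and Chil3 were lower. Of 3754 genes, 432 were more than 2-fold higher with D-CAN (11.5%) and 213 more than 2-fold lower (5.67%), and 628 of the 645 had the same direction in the other gate cells. The median log2 ratio was 0.11. TMM scaling shifts it by -0.17 and turns the split to 303 higher and 323 lower, so the balance of rises and falls depends on the scaling.

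Cxcl9, a chemokine for CXCR3-bearing T cells that interferon-gamma induces, stood at 0, 0, 375 and 5.94 CPM, 63.2-fold higher with D-CAN than in WT/PBS (exact interval 36.7 to 119, from 690 and 13 UMIs). Iigp1, an interferon-induced GTPase, stood at 100 CPM with D-CAN, from 184 UMIs, and had none in WT/PBS, where 3 UMIs would be 1.37 CPM. Ciita stood at 45.2, 72.9, 137 and 7.31 CPM and H2-Ab1 at 1255, 1577, 4131 and 1472 CPM. All 7 measured class II genes were past 2-fold with D-CAN, with a median of 1.47 in members and 1.74 in the other gate cells, and for each of them D-CAN was the highest of the 4 libraries. Against Pdgfrb-TK/PBS 3 of the 7 were past 2-fold (Cd74, H2-Ab1 and H2-Eb1). Gbp2 and Bst2 were also higher, whereas Ifit1 and Rsad2 of the same interferon list were lower (log2 -3.93 and -2.97). The other large rises included Ccn3, Dnase1l3, Bank1, Ksr2, Cd72 and Abcg3, with log2 ratios between 4.05 and 5.03, of which Abcg3 turned to -0.12 against Pdgfrb-TK/PBS. Bank1 and Cd72 are best known from B cells, whose 6 markers summed to 6.42, 9.12, 3.81 and 0.457 CPM in members, led by Cd79b at 2.18 CPM in D-CAN, with 1 of the 6 at 0.

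Hmox1 (heme oxygenase) stood at 422, 480, 218 and 2174 CPM and Slc7a11 at 175, 310, 240 and 1541 CPM. Of 10 measured oxidative stress and iron genes, 9 were past 2-fold lower with D-CAN (median -2.02, and -1.50 in the other gate cells), of which Txnrd1 and Sqstm1 turned to 0.48 and 0.39 against Pdgfrb-TK/PBS. For these, WT/PBS stood above all 3 other libraries, and D-CAN lay nearer to the Pdgfrb-TK libraries than to WT/PBS. The same held for Cxcl1 (102, 204, 65.8 and 1244 CPM), Cxcl2 (1442, 2738, 2219 and 7578 CPM) and Cxcl3 (112, 170, 129 and 2008 CPM), ligands of CXCR2 on neutrophils. Of 17 chemokines 9 were past 2-fold lower and 3 higher (Ccl8, Ccl12 and Cxcl9). Against Pdgfrb-TK/PBS, Ccl12 stood at -0.64, and Ccl7, one of the 9, at 0.24 among cells with fewer than 2 epithelial genes. Set against the Pdgfrb-TK/PBS library in place of WT/PBS, 59 genes were past 2-fold lower with D-CAN in place of 213.

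Of 12 inflammatory genes 5 were lower with D-CAN (Acod1, Il1rn, Ptgs2, Tnf and Il6) and Cd80 higher. Against Pdgfrb-TK/PBS 4 of the 5 turned, Acod1 to 0.19, Il1rn to 0.06, Ptgs2 to 0.74 and Il6 to 0.34. Chil3 stood at 23.9 CPM with D-CAN and 446 CPM in WT/PBS, Hspb1, a small heat shock gene, at 20.7 and 785 CPM, and Postn and Col12a1, matrix genes of fibroblasts, at 3.26 against 118 and 2.72 against 56.6 CPM, beside fibroblast sums of 734 and 1435 CPM whose part in them was not tested. Hspb1 and Postn turned to 0.17 and 2.09 against Pdgfrb-TK/PBS. Serpinb2, Tmem267 and Fabp4 were among the 10 largest falls as well. Of 8 resident-type genes, C1qa, C1qb, C1qc and Maf were higher (median 0.88) and of 9 monocyte genes Itgam, Plac8, Ccr2 and Cx3cr1 (median 0.85), of which Itgam, Plac8 and Ccr2 turned to -1.11, -0.41 and -0.62 against Pdgfrb-TK/PBS. Mmp13 was not past 2-fold, at 374 and 305 CPM.

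**Figure D5:**
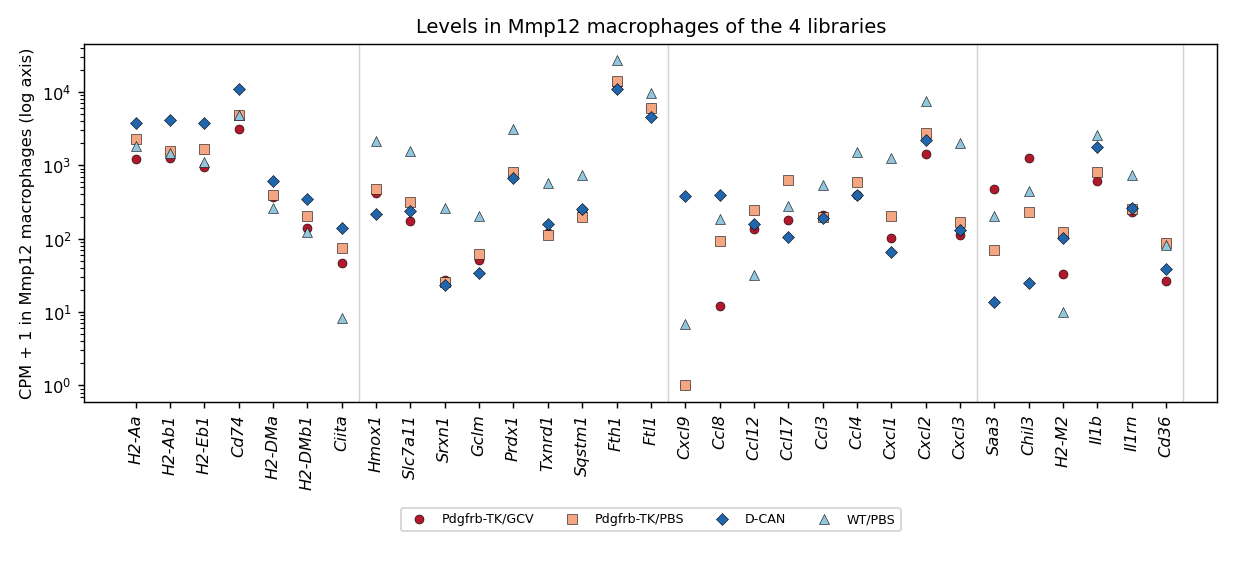
CPM (1 added, log axis) of MHC class II, oxidative stress, chemokine and other genes in the Mmp12 macrophages of the 4 libraries, 1 point per library. D-CAN is highest for the 7 class II genes and for Cxcl9, and WT/PBS is highest for the 9 oxidative stress genes and for Cxcl1, Cxcl2 and Cxcl3.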

How the data were processed

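The deposited files hold counts, whole-number UMIs per gene and cell that the authors made with Cell Ranger against mm10. The paper's methods name an older Cell Ranger than the 7.0.0 of the file headers, and the submitters' processing notes name STAR 2.6. Samples were mapped by title, since the protocol label describes nuclei of another tissue. Cells were classed only by the rule above, and no doublet caller was run, so doublets were kept. Features for GFP and Tdtomato in 2 libraries were left out of totals.

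UMIs were summed per library and class and tested with edgeR 4.0.16 (filterByExpr, TMM, library block, quasi-likelihood test, Benjamini-Hochberg over the 11097 genes tested), after a check on simulated data. Both classes come from each library, which is the pairing behind the block. The 4 libraries stand for 4 conditions, so p-values measure the spread between these libraries. DESeq2 1.42.0 was an alternative. Conditions were compared by CPM with exact Poisson-based 95% intervals, which cover counting error only.

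The genes named were the members of 15 lists and of 12 marker lists, the 15 largest rises and falls with an adjusted p under 0.05, the same direction in 4 libraries and at least 20 CPM in the higher class, and the 10 largest rises and falls per treatment; ribosomal, mitochondrial and unnamed gene models were left out, and a few genes are not reported here. A few further genes (Mmp10, Mmp1b) were given as neighbors of Mmp12. Members and lists were chosen with earlier results of these data known. Marker lists of endothelial, pericyte, T, B, mast, acinar and erythroid cells each summed to at most 51.7 CPM in Mmp12 macrophages.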

Additional observations from a re-analysis of the deposited data

Results flagged for a closer look

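Within Mmp12 macrophages, 6 of the genes named here were past 2-fold in opposite directions under the 2 treatments, each against its own PBS library, with 1 library per condition and the difference not tested. Over all measured genes, 2.78% were past 2-fold higher and 1.49% lower with GCV, and 11.5% and 5.67% with D-CAN. Whether 6 is more than these shares would give was not tested. The log2 ratio for GCV and then D-CAN was 2.44 and -4.16 for Chil3, 2.76 and -3.90 for Saa3, -1.91 and 3.33 for H2-M2, -1.71 and 1.05 for Ifi27l2a, 1.15 and -1.22 for Il6 and 1.17 and -1.14 for Mmp19. With the PBS libraries exchanged, Chil3 and Saa3 kept both signs and the other 4 did not: GCV gave 1.68 for H2-M2, -0.41 for Il6 and -1.88 for Mmp19, and D-CAN gave -0.27 for H2-M2, -0.32 for Ifi27l2a, 0.34 for Il6 and 1.91 for Mmp19. Among cells with fewer than 2 epithelial genes GCV gave -0.04 for Il6.

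The libraries of wild-type mice list sequences of fluorescent reporters that no comparison used. In Mmp12 macrophages GFPcds stood at 23.9 CPM with D-CAN and 28.8 CPM with PBS and Tdtomato at 38.1 and 42 CPM, above the 1.63 and 1.37 CPM that 3 UMIs give. In KPC tumor cells GFPcds stood at 0.447 and 1.71 CPM and Tdtomato at 0.33 and 1.37 CPM, and in the other gate cells GFPcds stood at 25.9 and 30.5 CPM and Tdtomato at 30.6 and 44.8 CPM.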

How the results depend on the processing

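DESeq2, a comparator with no Mmp12 UMI, cells thinned to 2000 UMIs, 500 genes per cell and at most 20% mitochondrial UMIs left the counts of genes higher (169) and lower (80) within 1.5 times. They were 408 and 421 with no filter on low counts, 72 and 32 with a minimum of 10 Mmp12 UMIs, 51 and 36 with fewer than 2 epithelial genes, and 0 and 0 with no replicate block (the cause was not tested). Leaving out 1 library at a time gave 56 to 149 genes higher and 22 to 74 lower. Of the 71 genes called and named in that comparison, none changed sign under a setting that tested it, and some were not tested under every setting. Many lost their call: 34 with fewer than 2 epithelial genes, 31 without Pdgfrb-TK/PBS and 26 at a minimum of 10 Mmp12 UMIs. Calls were also lost by 20 without D-CAN, 15 without Pdgfrb-TK/GCV, 10 without WT/PBS and all 71 with no replicate block. The GCV share fold was 1.66 within the gate, 3.51 with members limited to fewer than 2 epithelial genes and 1.85 against WT/PBS. The D-CAN share fold was, in the same order, 0.971 (turned), 2.21 and, against Pdgfrb-TK/PBS, 3.01. For GCV, genes past 2-fold numbered 749 higher and 250 lower at minimums of 30 UMIs and 10 CPM, 11 lower after thinning, 23 lower with fewer than 2 epithelial genes, and 323 and 260 against WT/PBS. For D-CAN they numbered 1093 and 501 at the lower minimums, 323 lower with TMM, 144 and 109 after thinning and 59 lower against Pdgfrb-TK/PBS. With WT/PBS as control, the GCV log2 ratio turned to -1.17 for Dnajb1, -0.31 for Hsph1, -0.41 for Il6, -1.88 for Mmp19, 0.81 for Tff2, 0.11 for Tff1, 0.29 for Lgals4, 1.68 for H2-M2, 0.76 for Add2 and 0.65 for Pf4. With Pdgfrb-TK/PBS as control, the D-CAN ratio turned to -0.12 for Abcg3, -0.27 for Pfkl and H2-M2, -0.32 for Ifi27l2a, -0.09 for Axl, -0.35 for Mertk, -0.41 for Plac8, -0.62 for Ccr2, -0.64 for Ccl12, -1.11 for Itgam, -1.30 for Egln3, -1.82 for Ccl24, 0.06 for Il1rn, 0.11 for Areg, 0.15 for Csf2rb2, 0.17 for Hspb1, 0.19 for Acod1, 0.34 for Il6, 0.39 for Sqstm1, 0.48 for Txnrd1, 0.74 for Ptgs2, 1.05 for Il10, 1.91 for Mmp19 and 2.09 for Postn. With fewer than 2 epithelial genes the GCV ratio turned to -0.01 for Sprr1a, -0.04 for Il6, 1.22 for Ccl17, 1.61 for Plce1 and 2.03 for Add2, and the D-CAN ratio to 0.24 for Ccl7. The cause of these turns was not tested. Depth limits Pdgfrb-TK/PBS most, with 70 cells.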
